A study of Mus musculus with 27 samples.

Results

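Tumour CD8+ T cells that carry KLRG1 were compared by their PD-1 gate in mice under the combined therapy labelled Tri. The PD-1-positive cells, Tri PD1+KLRG1+, were held in 5 libraries, and the PD-1-negative cells, Tri PD1-KLRG1+, in 4. These 9 libraries of 27 in all were chosen by their titles, and their columns were matched through the sample descriptions. MC38, a mouse colon adenocarcinoma line, formed the tumours, and both groups shared the treatment, the tumour digest, the viability, CD45, CD3 and CD8 staining and the KLRG1+ gate. The parts of the Tri therapy, the host strain, the age of the mice and any pooling of animals are not stated in the sources used. The spread of each gene and the PD-1 difference outside the KLRG1+ gate came from 5 Tri PD1+KLRG1- and 5 Tri PD1-KLRG1- libraries of the same treatment. Libraries of the isotype control, labelled Iso, entered an alternative fit alone. The comparison addresses how the KLRG1+ cells found under the therapy differ by their PD-1 state.

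PD-1, the product of Pdcd1, is an inhibitory receptor that T cells raise on antigen stimulation and keep when stimulation persists, together with other inhibitory receptors and the nuclear factor Tox. KLRG1 is an inhibitory lectin-like receptor of late effector CD8+ T cells and NK cells. Cytotoxic T cells kill through perforin, which forms pores, and granzymes, serine proteases that enter the target cell. Mouse granzymes B to G are encoded in a cluster on chromosome 14 together with other granule proteases.

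Total counts were 13167543 to 18884712 in Tri PD1+KLRG1+ and 8586184 to 11989076 in Tri PD1-KLRG1+ libraries. Expression is given in CPM, counts relative to the scaled library total. Among genes whose median reached 20 CPM, 0.0282% to 3.74% had no count in a Tri PD1+KLRG1+ library and 0.155% to 1.11% in a Tri PD1-KLRG1+ library. Replicates 1 to 3 of Tri PD1+KLRG1+ had the highest such shares of the 9 libraries, 2.59%, 3.74% and 2.59%. Replicates correlated at 0.753 to 0.895 in Tri PD1+KLRG1+ and at 0.873 to 0.945 in Tri PD1-KLRG1+ (Pearson's r across genes of log2 CPM, genes not being independent).

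The transcripts of the sort followed the PD-1 gate. Pdcd1 (ENSMUSG00000026285) was at 688, 632, 912, 1182 and 1270.2 CPM in Tri PD1+KLRG1+ replicates 1 to 5, against 172, 46.8, 69.8 and 81.2 CPM in Tri PD1-KLRG1+ replicates 1 to 4. The groups did not overlap, with means of 937 ± 286 and 92.4 ± 54.8 CPM (SD, n = 5 and 4). Since cells were gated on its protein, the difference only checks the labels. Klrg1 (ENSMUSG00000030114), on which both groups were gated positive, was at 125, 146, 68.3, 80.8 and 39.3 CPM in Tri PD1+KLRG1+, against 224, 266, 349.7 and 186 CPM in Tri PD1-KLRG1+. Every Tri PD1+KLRG1+ library lay below every Tri PD1-KLRG1+ library, but the log2 fold change of -1.39 ± 0.39 (SE) missed the threshold of 0.05 (adjusted p = 0.0564). In the KLRG1- gates Klrg1 was at 5.12 ± 2.86 CPM in PD1+ and 19.8 ± 12.6 CPM in PD1- cells, below the mean of either KLRG1+ group.

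The CD8 T cell genes were present in every library. Cd8a, the CD8 alpha chain, was at 1671, 1800.2, 1800.0, 1817 and 2208 CPM in Tri PD1+KLRG1+, against 1225, 1375, 1149 and 1141 CPM in Tri PD1-KLRG1+. It was higher in every PD1+ library, by 0.61 ± 0.12 (adjusted p = 0.00591). Cd8b1 averaged 1676 and 2082 CPM in the PD1+ and PD1- groups and Cd3e 1449 and 1104 CPM, and neither passed the test (adjusted p = 0.536 and 0.169). Ptprc, which encodes CD45, fell by 0.76 on the log2 scale (1597 ± 331 against 2632 ± 539 CPM, adjusted p = 0.00404), with overlapping libraries. In these bulk samples a transcript level does not tell apart fewer cells of a type from less RNA per cell.

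Of 13288 genes tested, 418 (3.15%) differed between Tri PD1+KLRG1+ and Tri PD1-KLRG1+ at an adjusted p under 0.05 in edgeR's quasi-likelihood test. Among them 190 (1.43%) were higher and 228 (1.72%) lower in the PD1+ group. Without regard to the test, 697 genes (5.25%) had 5 PD1+ and 4 PD1- libraries that did not overlap, and 315 of the called genes were among these. The RNA names fall into a plain series (PD1+ replicates 1 to 3, PD1- replicates 1 to 3) and a suffixed one (PD1+ replicates 4 and 5, PD1- replicate 4). The plain series alone gave 106 higher and 175 lower genes. The suffixed one, with a single PD1- library, gave 1 call, Serpine2, and 415 of the 417 calls it could test had the same sign. Leaving out Tri PD1-KLRG1+ replicate 4 lowered the count to 126 higher and 119 lower genes, and leaving out its replicates 1 or 3 lowered the lower genes to 129 or 148.

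The granzyme family was split by the PD-1 gate. Granzymes C, D, E, F and G and perforin were higher, and granzymes A, K and M lower, in Tri PD1+KLRG1+ than in Tri PD1-KLRG1+ cells. Granzyme B, the classical caspase-activating granzyme of killer T cells, did not pass the test. Of 11 listed genes 10 were tested, 6 were higher and 3 lower. Gzmn held 10 counts, all in Tri PD1+KLRG1+ replicate 5, and was not tested.

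**Figure D1:**
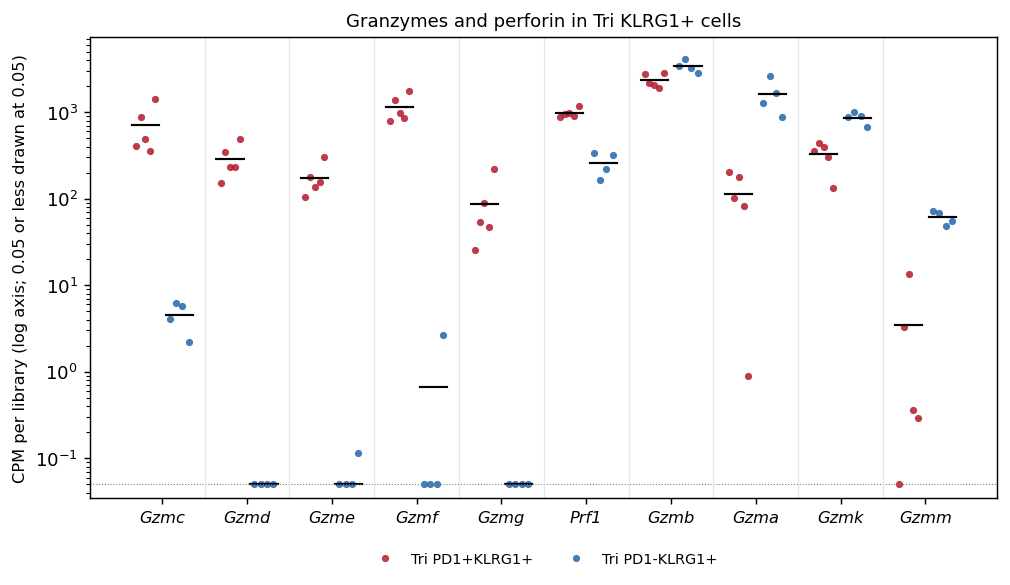
CPM per library on a log axis (values of 0.05 or less drawn at 0.05) for the granzymes and Prf1 in Tri PD1+KLRG1+ (red, left, 5 libraries) and Tri PD1-KLRG1+ (blue, right, 4 libraries), with black bars at the group means. Gzmc to Gzmg and Prf1 lie higher in every PD1+ library, and Gzma, Gzmk and Gzmm lie lower in every one.

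Gzmf (ENSMUSG00000015441) was at 787, 1367, 983, 854 and 1753 CPM in Tri PD1+KLRG1+, against 0, 0, 0 and 2.68 CPM in Tri PD1-KLRG1+. Only replicate 4 of the PD1- group held any, and the log2 fold change was 10.90 ± 1.28 (SE, adjusted p = 6.63e-05). Gzmc (ENSMUSG00000079186) was at 401, 870.2, 489, 359 and 1411 CPM in the PD1+ libraries, against 4.02, 6.24, 5.81 and 2.21 CPM in the PD1- libraries, a log2 fold change of 7.21 ± 0.81 (adjusted p = 4.21e-05). It was the one of granzymes C to G with counts in all 4 PD1- libraries. Gzmd was at 152, 349.5, 231, 233 and 485 CPM in the PD1+ libraries and had no count in any PD1- library. Against a floor of 3 counts over the PD1- group it was at least 3519-fold higher (adjusted p = 0.000528). Gzmg was at 25.4, 54.1, 88.98, 47.7 and 222 CPM in the PD1+ libraries and likewise without a count in the PD1- libraries, at least 1009-fold higher (adjusted p = 8.43e-05). Gzme was at 106, 177, 135, 156 and 299 CPM in the PD1+ libraries and at 1 count in all PD1- libraries together, a ratio of 6350 with a counting interval (95%) of 1140 to 250836 (adjusted p = 1.19e-08). Replicate 5 of the PD1+ group held the highest level of each of the 5 genes. Summed, granzymes C to G came to 1472 to 4171 CPM in Tri PD1+KLRG1+ and 4.02 to 6.24 CPM in Tri PD1-KLRG1+ libraries. Floors and counting intervals cover counting error only.

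Granzymes C to G are close copies, which bears on how their reads could be assigned. Their transcripts were 68.8% to 90.0% identical to each other over 10 pairs, and 45.4% to 47.5% identical to that of Gzmb. Of the 50-base stretches of a transcript, 21.5% of Gzmd, 19.1% of Gzme, 15.2% of Gzmg, 7.36% of Gzmf and 4.14% of Gzmc also occurred in another granzyme, and none of Gzma, Gzmb, Gzmk or Gzmm. Levels of Gzmd, Gzme and Gzmg may therefore be split among copies by the authors' counting, whose rule for shared reads is not stated in the sources used. The sum over the 5 genes does not depend on how shared reads were divided among them, but would lack any that the counting discarded. Gzmn was not among the transcripts compared.

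The promoters of granzymes C to G, shown because these genes differed together between the gates, were copies of each other as well. Over the bases before the gene's start they were 70.2% to 94.8% identical, against 44.1% to 47.5% with that of Gzmb. Each held the RUNX core TGTGGT, the motif of the Runx factors of CD8 T cells, in both orientations. Of all 27025 promoter windows in the table, 18.9% held these 6 letters on either strand. The Gzmb promoter held it too, so the motif was not shared by the genes that rose alone. The stretches below come from RefSeq (GRCm38.p6), run 5′ to 3′ along the gene's strand, and mark the motif, or its reverse complement, in capitals. A match describes the letters and is not a measured binding site.
Gzmc (chr14:56234728-56234837, minus strand): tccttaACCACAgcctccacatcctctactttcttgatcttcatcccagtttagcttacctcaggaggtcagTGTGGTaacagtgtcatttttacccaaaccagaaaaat
Gzmd (chr14:56132664-56132773, minus strand): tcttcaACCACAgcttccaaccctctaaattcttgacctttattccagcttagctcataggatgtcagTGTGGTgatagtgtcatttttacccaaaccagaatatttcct
Gzme (chr14:56120697-56120806, minus strand): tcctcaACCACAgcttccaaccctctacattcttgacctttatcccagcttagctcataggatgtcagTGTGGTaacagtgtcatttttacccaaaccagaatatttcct
Gzmf (chr14:56211499-56211608, minus strand): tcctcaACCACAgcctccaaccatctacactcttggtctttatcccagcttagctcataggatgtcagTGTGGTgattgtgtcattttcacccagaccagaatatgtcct
Gzmg (chr14:56159666-56159775, minus strand): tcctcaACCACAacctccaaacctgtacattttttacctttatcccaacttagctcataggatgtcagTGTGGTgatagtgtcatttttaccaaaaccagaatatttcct
Gzmb (chr14:56262335-56262427, minus strand): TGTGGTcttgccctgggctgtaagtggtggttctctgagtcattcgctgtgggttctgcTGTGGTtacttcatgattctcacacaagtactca

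Prf1 (ENSMUSG00000037202), which encodes perforin, was at 882, 963, 969, 902 and 1163 CPM in Tri PD1+KLRG1+, against 337, 165, 219 and 319.6 CPM in Tri PD1-KLRG1+. The lowest PD1+ library lay far above the highest PD1- library, and the log2 fold change was 1.90 ± 0.22 (adjusted p = 6.88e-05). Gzmb (ENSMUSG00000015437) was at 2726, 2186, 2058, 1889 and 2832 CPM in Tri PD1+KLRG1+, against 3395, 4152, 3239 and 2839 CPM in Tri PD1-KLRG1+. The highest PD1+ library lay just under the lowest PD1- library, and a log2 fold change of -0.53 ± 0.18 did not pass (adjusted p = 0.128).

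Gzma (ENSMUSG00000023132), the tryptase granzyme A, was at 205, 103, 178, 81.3 and 0.883 CPM in Tri PD1+KLRG1+, against 1273, 2620.0, 1684 and 889.7 CPM in Tri PD1-KLRG1+. Replicate 5 of the PD1+ group, the highest for granzymes C to G, was the lowest here, and the log2 fold change was -3.81 ± 0.75 (adjusted p = 0.00519). Gzmk (ENSMUSG00000042385), another tryptase, was at 356, 445, 392, 300.5 and 132 CPM in the PD1+ libraries, against 879, 998, 894 and 674 CPM in the PD1- libraries, a log2 fold change of -1.37 ± 0.26 (adjusted p = 0.00407). Gzmm (ENSMUSG00000054206) was at 0, 3.31, 13.6, 0.362 and 0.294 CPM in the PD1+ libraries, against 72.2, 67.5, 48.9 and 55.1 CPM in the PD1- libraries. Its log2 fold change of -4.52 ± 1.06 (adjusted p = 0.0193) was not called without Tri PD1-KLRG1+ replicate 4 (adjusted p = 0.071) or Tri PD1+KLRG1+ replicate 5 (0.0533). All granzymes together took 0.392% to 0.714% of counts in Tri PD1+KLRG1+ and 0.446% to 0.784% in Tri PD1-KLRG1+ libraries, so the groups overlapped in the total and differed in its make-up.

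Around the granzymes, 2 of 17 tested genes of granule machinery and protease inhibitors were higher and 0 lower in Tri PD1+KLRG1+. Cst7, cystatin F, which restrains the cathepsins that activate granzymes, was at 483, 576, 665, 395 and 737 CPM in Tri PD1+KLRG1+, against 180.4, 378, 316 and 134 CPM in Tri PD1-KLRG1+ (1.30 ± 0.25, adjusted p = 0.00444). Serpinb9b, a serpin, averaged 281 ± 156 CPM in the PD1+ and 11.2 ± 10.1 CPM in the PD1- group (4.66 ± 0.98, adjusted p = 0.00854), and neither gene's libraries overlapped. The median log2 fold change of the 17 was 0.17, beside -0.03 over all genes tested. Nkg7, a granule membrane protein, averaged 5101 CPM in PD1+ and 4891 CPM in PD1- cells (adjusted p = 0.752).

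The inhibitory receptor genes Lag3, Havcr2, Tigit, Cd244a and Cd200 rose with PD-1. Of 22 listed receptors and ectoenzymes, 21 were tested, 6 including Pdcd1 itself were higher and 1 was lower in Tri PD1+KLRG1+. The median log2 fold change of the 21 was 0.64, and 15 were positive. Lag3 (ENSMUSG00000030124), which binds MHC class II, was at 90.1, 45.4, 126, 110.2 and 98.9 CPM in Tri PD1+KLRG1+, against 6.74, 17.5, 4.67 and 5.00 CPM in Tri PD1-KLRG1+ (3.46 ± 0.46, adjusted p = 0.000208). Havcr2 (ENSMUSG00000020399), which encodes TIM-3, was at 306, 336, 395, 372 and 385 CPM in the PD1+ libraries, against 159, 79.4, 119.8 and 87.03 CPM in the PD1- libraries (1.70 ± 0.23, adjusted p = 0.000253). Neither gene overlapped between the groups.

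Tigit (ENSMUSG00000071552), a receptor for CD155, was at 147, 104, 215, 95.5 and 104 CPM in Tri PD1+KLRG1+, against 52.1, 94.2, 47.3 and 43.5 CPM in Tri PD1-KLRG1+ (1.24 ± 0.24, adjusted p = 0.00478). Its lowest PD1+ library stood just above the highest PD1- library, replicate 2. Cd244a, which encodes the receptor 2B4, was at 129, 93.7, 98.2, 178 and 179.5 CPM in the PD1+ libraries, against 18.1, 7.99, 0.622 and 5.12 CPM in the PD1- libraries (3.83 ± 0.70, adjusted p = 0.00328). Cd200, a surface glycoprotein that signals to CD200R on other cells, was at 26.2, 18.4, 34.8, 59.7 and 32.01 CPM in the PD1+ libraries and had counts in 1 of 4 PD1- libraries, at 0.465 CPM (8.16 ± 1.31, adjusted p = 0.00102).

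Vsir, which encodes VISTA, was the 1 lower gene, at 188, 289, 218, 345 and 222 CPM in Tri PD1+KLRG1+, against 402, 389, 438 and 415 CPM in Tri PD1-KLRG1+ (-0.73 ± 0.18, adjusted p = 0.0293). Its call was lost in 7 of 9 fits that left out 1 compared library, with an adjusted p up to 0.103 without Tri PD1-KLRG1+ replicate 3. The other 14 tested genes did not pass. Ctla4 averaged 89.6 ± 26.7 CPM in the PD1+ and 51.01 ± 7.22 CPM in the PD1- group (adjusted p = 0.201), and Entpd1, the ectoenzyme CD39, 196 ± 81.01 and 89.8 ± 51.5 CPM (adjusted p = 0.127). Cd200r1 averaged 19.7 against 0.328 CPM with replicate 1 of the PD1+ group at 0 (adjusted p = 0.0758). Btla and Lair1 averaged 2.99 and 6.95 CPM in PD1+ libraries, against 20.1 and 39.4 CPM in PD1- libraries, and were not called although no library overlapped (adjusted p = 0.263 and 0.448). Cd160, Cd96, Cd38, Cd101, Cd274, Cd200r4, Nt5e, Pdcd1lg2 and Klrc1 overlapped between the groups, with log2 fold changes from -0.37 to 1.35.

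**Figure D2:**
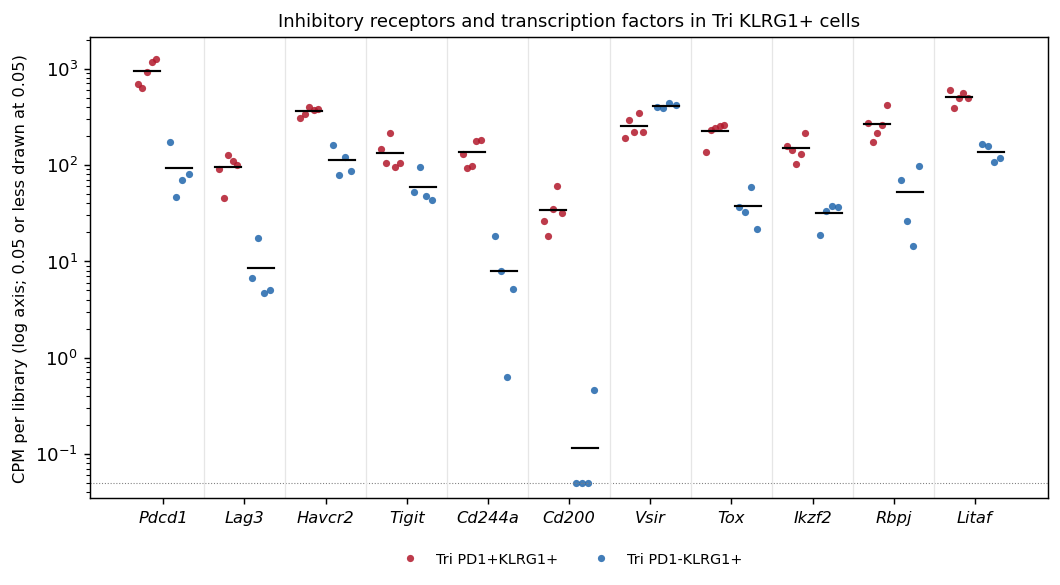
CPM per library on a log axis (values of 0.05 or less drawn at 0.05) for 7 inhibitory receptor genes and 4 regulators in Tri PD1+KLRG1+ (red, left, 5 libraries) and Tri PD1-KLRG1+ (blue, right, 4 libraries), with black bars at the group means. Vsir alone is lower in every PD1+ library, and the other 10 genes are higher in every PD1+ library.

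Transcription factors linked to antigen stimulation and exhaustion moved in part. Of 20 tested, 5 were higher and 0 lower in Tri PD1+KLRG1+, with a median log2 fold change of 0.48. Tox (ENSMUSG00000041272), which sustains the exhausted state, was at 136, 231, 239, 254 and 259 CPM in Tri PD1+KLRG1+, against 36.5, 32.1, 58.4 and 21.8 CPM in Tri PD1-KLRG1+ (2.61 ± 0.31, adjusted p = 7.91e-05). Replicate 1 of the PD1+ group was the lowest of its 5 and still above every PD1- library. Rbpj, the DNA-binding partner of Notch, was at 273, 172, 213, 259 and 417 CPM in PD1+ libraries, against 69.6, 26.1, 14.3 and 97.6 CPM in PD1- libraries (2.33 ± 0.35, adjusted p = 0.000660). Ikzf2, the zinc finger protein Helios, averaged 149 ± 41.00 against 31.5 ± 8.63 CPM (2.14 ± 0.33, adjusted p = 0.000803).

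Litaf, named for the induction of TNF by lipopolysaccharide, averaged 506 ± 80.8 CPM in Tri PD1+KLRG1+ and 136 ± 28.5 CPM in Tri PD1-KLRG1+ (1.91 ± 0.19, adjusted p = 1.49e-05). Nr4a2, an orphan nuclear receptor induced by antigen, averaged 185 against 33.6 CPM, at the edge of the threshold (2.32 ± 0.63, adjusted p = 0.0490). Its call was lost in 8 of 9 fits that left out 1 compared library (adjusted p up to 0.183, without Tri PD1-KLRG1+ replicate 4). Its relatives Nr4a1 (73.1 against 40.9 CPM) and Nr4a3 (29.03 against 19.98 CPM) did not pass (adjusted p = 0.557 and 0.852). Eomes, a T-box factor of effector and exhausted cells, averaged 132 CPM in PD1+ and 209 CPM in PD1- libraries (adjusted p = 0.329), and Batf, an AP-1 factor, 114 and 96.7 CPM (adjusted p = 0.7096).

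Among costimulatory receptors, 3 of 14 tested were higher and 0 lower in Tri PD1+KLRG1+, and all 3 belong to the TNF receptor family. Tnfrsf9 (ENSMUSG00000028965), which encodes 4-1BB, was at 1297, 1078, 1267, 1238 and 919.8 CPM in Tri PD1+KLRG1+, against 312, 351, 294 and 294 CPM in Tri PD1-KLRG1+ (1.91 ± 0.18, adjusted p = 3.1e-06). Tnfrsf4, which encodes OX40, was at 289.6, 213, 224, 117 and 102 CPM in the PD1+ libraries, against 9.36, 21.1, 8.61 and 23.4 CPM in the PD1- libraries (3.61 ± 0.60, adjusted p = 0.00137). Tnfrsf18, which encodes GITR, averaged 364 ± 36.9 against 226 ± 54.98 CPM (0.75 ± 0.19, adjusted p = 0.0294). The call of Tnfrsf18 was lost in 4 of 9 fits that left out 1 compared library (adjusted p up to 0.0900, without Tri PD1-KLRG1+ replicate 3). Icos averaged 193 CPM in PD1+ and 159 CPM in PD1- cells (adjusted p = 0.488). The median log2 fold change of the 14 was -0.01, with 6 positive, and median-ratio scaling moved it to 0.05, with 8 positive.

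Secreted products differed gene by gene. Of 9 chemokines tested, 2 were higher and 1 lower in Tri PD1+KLRG1+. Ccl3, an inflammatory chemokine of activated T cells, was at 420.5, 462, 740.4, 377 and 466 CPM in Tri PD1+KLRG1+, against 80.04, 95.5, 76.1 and 16.99 CPM in Tri PD1-KLRG1+ (2.90 ± 0.55, adjusted p = 0.00404). Ccl1, the ligand of CCR8, was at 66.5, 114, 139, 76.5 and 87.7 CPM in the PD1+ libraries, against 2.10, 21.6, 3.84 and 5.93 CPM in the PD1- libraries (3.57 ± 0.72, adjusted p = 0.00651). Ccl4, a close relative of Ccl3, did not overlap between the groups at 747 ± 91.9 against 242 ± 119 CPM, yet did not pass (1.63 ± 0.48, adjusted p = 0.0705). Ccl5, another chemokine of cytotoxic T cells, moved the other way. It was at 1176, 749.7, 1069.9, 584 and 269.5 CPM in PD1+ libraries, against 2178, 3481, 2139 and 1499.7 CPM in PD1- libraries (-1.53 ± 0.29, adjusted p = 0.00407).

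Of 13 effector cytokines and death ligands tested, Ifng was higher and Fasl lower in Tri PD1+KLRG1+. Ifng, which encodes interferon gamma, was at 472, 477, 566, 464 and 392 CPM in Tri PD1+KLRG1+, against 193, 222, 201 and 67.7 CPM in Tri PD1-KLRG1+ (1.51 ± 0.39, adjusted p = 0.0347). The groups did not overlap, but the call was lost in 7 of 9 fits that left out 1 compared library (adjusted p up to 0.145, without Tri PD1-KLRG1+ replicate 4). Fasl, the ligand of the death receptor Fas, averaged 314 ± 52.6 against 597 ± 98.7 CPM (-0.93 ± 0.18, adjusted p = 0.00598), and its adjusted p was 0.0529 without Tri PD1-KLRG1+ replicate 4. Csf1, a macrophage growth factor, was at 80.7, 92.6, 63.5, 206 and 147 CPM in PD1+ libraries, against 0.262, 19.1, 0.207 and 0 CPM in PD1- libraries, and did not pass (adjusted p = 0.103).

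Stem-like and memory genes that passed the test were lower in the PD1+ group, with Ccr7 the exception. Of 20 tested, 6 were lower and 1 higher in Tri PD1+KLRG1+, with a median log2 fold change of -0.77. Lef1, a partner of beta-catenin in early T cells, averaged 60.8 against 168 CPM (-1.47 ± 0.32, adjusted p = 0.0108), and Slamf6, a surface receptor of precursor exhausted cells, 38.6 against 141 CPM (-1.81 ± 0.39, adjusted p = 0.0101). Of 9 fits that left out 1 compared library, Lef1 lost its call in 2 and Slamf6 in 1 (adjusted p up to 0.0618, without Tri PD1-KLRG1+ replicate 3, and 0.0561, without replicate 4). Foxo1, a factor that maintains memory and homing genes, was at 29.96, 22.1, 95.9, 131 and 55.8 CPM in PD1+ libraries, against 235, 179.6, 207 and 274 CPM in PD1- libraries (-1.83 ± 0.35, adjusted p = 0.00407). Satb1, a chromatin organiser, averaged 91.04 ± 33.99 against 252 ± 87.9 CPM (-1.54 ± 0.27, adjusted p = 0.00247). Id3 had no count in any PD1+ library and 12.3, 5.62, 11.6 and 7.56 CPM in the PD1- libraries, at least 267-fold lower (adjusted p = 0.00198).

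Ly6c2, a surface marker of memory and effector CD8+ cells, averaged 957 ± 216 CPM in Tri PD1+KLRG1+ and 3029.7 ± 1036 CPM in Tri PD1-KLRG1+ (-1.62 ± 0.25, adjusted p = 0.000803). Tcf7, the defining factor of stem-like cells, averaged 23.01 against 115 CPM but did not pass (adjusted p = 0.238). Ccr7, the lymph node homing receptor, was higher, at 33.5 against 6.06 CPM (2.51 ± 0.53, adjusted p = 0.00854).

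Of 20 late effector genes, 3 were lower and 2 higher in Tri PD1+KLRG1+, with a median of -0.44. Itgax, which encodes the integrin CD11c, was at 56.6, 40.1, 16.8, 97.7 and 2.72 CPM in PD1+ libraries, against 352, 282, 293 and 319 CPM in PD1- libraries (-2.85 ± 0.60, adjusted p = 0.00842). S1pr5, an egress receptor of late effectors, had no count in the PD1+ libraries and 21.1, 69.8, 17.8 and 67.02 CPM in the PD1- libraries, at least 1137-fold lower (adjusted p = 0.0411). Its call was lost in 9 of 9 fits that left out 1 compared library (adjusted p up to 0.167, without Tri PD1-KLRG1+ replicate 4). It was also lost in DESeq2, with a replicate block and in the plain series alone. Ly6c2, given above, is also on this list. The 2 higher genes were Anxa2 (1656 ± 107 against 1092 ± 237 CPM, adjusted p = 0.00319) and S100a4 (841 ± 217 against 499 ± 238 CPM, adjusted p = 0.0294), a pair of calcium-dependent membrane and cytoskeleton proteins. The call of S100a4 was lost in 5 of 9 fits that left out 1 compared library (adjusted p up to 0.0991, without Tri PD1-KLRG1+ replicate 4). Tbx21, which encodes T-bet, averaged 269 against 399 CPM (adjusted p = 0.0802), Zeb2 33.2 against 34.9 CPM (adjusted p = 0.956) and Cx3cr1 112 against 82.7 CPM (adjusted p = 0.738).

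Of 22 homing and egress genes tested, 7 were lower and 3 higher in Tri PD1+KLRG1+, 18 had a negative log2 fold change and the median was -1.11. Leaving out 1 of the 9 compared libraries left 4 to 7 lower and 2 to 3 higher, with 4 lower when this was replicate 1 or 5 of the PD1+ group or replicate 1 or 4 of the PD1- group, and the plain series alone called 4 lower and 2 higher. Itgb7, an integrin chain of gut and tissue homing, was at 376, 481, 188, 273 and 83.4 CPM in PD1+ libraries, against 1289, 822, 1063 and 1007 CPM in PD1- libraries (-1.89 ± 0.30, adjusted p = 0.000803). Cxcr3, the receptor of interferon-induced chemokines, was at 173, 153, 190.1, 189 and 24.2 CPM in PD1+ libraries, against 561, 563, 558 and 450.4 CPM in PD1- libraries (-1.84 ± 0.33, adjusted p = 0.00313). Ccr2, the receptor of CCL2, averaged 144 against 726 CPM (-2.32 ± 0.48, adjusted p = 0.00748). S1pr4 averaged 26.01 against 75.1 CPM and the integrin chain Itga4 216 against 355 CPM (adjusted p = 0.0290 and 0.0271). Both calls were lost in 6 of 9 fits that left out 1 compared library (adjusted p up to 0.133 and 0.145, without Tri PD1-KLRG1+ replicate 4). S1pr1, the main egress receptor, averaged 53.8 against 305 CPM and just missed the threshold (adjusted p = 0.0517).

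Cxcr6, the receptor for CXCL16 on tumour-resident T cells, was higher, at 1867, 1912, 1837, 1920.3 and 2557 CPM in Tri PD1+KLRG1+, against 1353, 1092, 1227 and 1343 CPM in Tri PD1-KLRG1+ (0.66 ± 0.13, adjusted p = 0.00586). Ccr8, the receptor for Ccl1, was at 79.7, 24.5, 71.5, 68.2 and 30.2 CPM in PD1+ libraries, against 0, 4.24, 0 and 0 CPM in PD1- libraries (5.73 ± 1.37, adjusted p = 0.0230). Its call was lost without Tri PD1-KLRG1+ replicates 1, 3 or 4 (adjusted p = 0.0609, 0.0618 and 0.0741). On the list of tissue residency, 3 of 16 were higher, which were Cxcr6, Ccr8 and Rgs16, and 1 was lower, with a median of 0.36. The lower one was Cd69, an early activation antigen that retains T cells in tissue, at 93.4, 132, 184, 119 and 111 CPM in PD1+ libraries, against 365, 366, 441 and 338 CPM in PD1- libraries (-1.51 ± 0.20, adjusted p = 0.000173). Cd69 was also the 1 of 21 immediate-early genes to be called, with 0 higher and a list median of -0.18.

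The listed interferon-stimulated genes that passed the test were all lower in the PD1+ group. All 22 tested had a negative log2 fold change, 9 were called lower and 0 higher, and the median was -0.91, beside -0.03 over all genes. Under median-ratio scaling 7 were called and 21 were negative, and 5 to 9 were called when 1 library was left out. The direction applies to this list alone. Outside it, Ifitm1 (175 against 29.9 CPM, adjusted p = 0.000299) and Plscr1 (155 against 23.8 CPM, adjusted p = 0.000534) were called higher. Igtp, Sp100 and Sp110, also outside it, were called lower. Rtp4, an interferon-induced chaperone, was at 72.1, 75.1, 62.8, 72.1 and 34.1 CPM in Tri PD1+KLRG1+, against 165, 226, 297 and 166 CPM in Tri PD1-KLRG1+ (-1.73 ± 0.22, adjusted p = 0.000143). Usp18, which removes the ISG15 tag and dampens interferon signalling, was at 145, 154, 73.6, 102 and 112 CPM in PD1+ libraries, against 376, 331, 359 and 299 CPM in PD1- libraries (-1.53 ± 0.22, adjusted p = 0.000341). Zbp1, a sensor of nucleic acids, averaged 220.5 ± 39.4 against 449 ± 35.4 CPM (-1.01 ± 0.16, adjusted p = 0.000965). Oas1a, an antiviral oligoadenylate synthetase, averaged 53.1 ± 7.68 against 108 ± 17.9 CPM (-0.97 ± 0.19, adjusted p = 0.00407). The call of Oas1a was lost without a count filter, in the plain series alone, with all 27 libraries and with the 9 compared libraries alone.

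The signalling factors of the interferon response Stat2 (48.9 against 99.5 CPM) and Irf7 (170.3 against 311 CPM) were lower in Tri PD1+KLRG1+ as well (adjusted p = 0.0160 and 0.00642), as were Ifit3 (158 against 356 CPM, adjusted p = 0.0244) and Xaf1 (94.1 against 171 CPM, adjusted p = 0.0402). Of 9 fits that left out 1 compared library, the call was lost in 2 for Stat2, 5 for Ifit3 and 6 for Xaf1 (adjusted p up to 0.0736 without Tri PD1-KLRG1+ replicate 1, and 0.0940 and 0.152 without its replicate 2). Ly6a and Isg20 differed little, at log2 fold changes of -0.19 and -0.03 (adjusted p = 0.797 and 0.971). The interferon-stimulated response element, searched on both strands as GAAA, any 2 bases and GAAA, was held by 3 of the 5 called genes that had a promoter window and by 6 of the 10 others, against 3.99% of all windows. Stretches are shown for Ifit3 and Oas1a, whose windows held 2 copies each (overlapping in Oas1a), from RefSeq (GRCm38.p6), 5′ to 3′ along the gene's strand, with the element or its reverse complement in capitals.
Ifit3 (chr19:34583363-34583432, plus strand): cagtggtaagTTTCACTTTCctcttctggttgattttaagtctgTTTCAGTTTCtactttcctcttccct
Oas1a (chr5:120907526-120907555, minus strand): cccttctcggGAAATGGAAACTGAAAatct

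Glycolysis and hypoxia-response genes that passed the test were all higher in the PD1+ group. Of 22 tested, 7 were higher and 0 lower in Tri PD1+KLRG1+, 21 had a positive log2 fold change and the median was 0.50. Leaving out 1 library left 4 to 8 called, and the plain series alone called 3. Tpi1, a glycolytic isomerase, was at 862, 1118, 1129, 874 and 887 CPM in Tri PD1+KLRG1+, against 526, 543, 527 and 441 CPM in Tri PD1-KLRG1+ (1.00 ± 0.15, adjusted p = 0.000698). Bnip3, a mitophagy receptor induced by hypoxia, was at 161, 127, 118, 125 and 40.1 CPM in PD1+ libraries, against 10.7, 19.2, 10.99 and 28.2 CPM in PD1- libraries (2.67 ± 0.57, adjusted p = 0.00926). Hilpda, a lipid droplet protein induced by hypoxia, averaged 107 ± 37.5 against 30.7 ± 9.61 CPM (1.81 ± 0.38, adjusted p = 0.00826). The enzymes Gapdh (1697 against 1176 CPM), Pgk1 (566 against 361 CPM), Pgam1 (654 against 439 CPM) and Ldha (2561 against 2012 CPM) rose by 0.65, 0.68, 0.63 and 0.42 on the log2 scale (adjusted p = 0.0190, 0.0402, 0.00681 and 0.0449). The calls of Gapdh, Pgk1 and Ldha were lost in 1, 7 and 6 of 9 such fits (adjusted p up to 0.0782, 0.0960 and 0.105, without Tri PD1-KLRG1+ replicate 4 for Gapdh and Pgk1 and replicate 3 for Ldha). That of Pgam1 held in these fits. It was lost without the series term, in the plain series alone, with all 27 libraries and with the 9 compared libraries alone. The glucose transporter Slc2a1 averaged 165 against 147 CPM and did not pass (adjusted p = 0.782). The core of the hypoxia response element, ACGTG on either strand, was in the promoter window of 6 of 7 called genes and of 10 of 14 others with a window, against 21.8% of all windows.

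**Figure D3:**
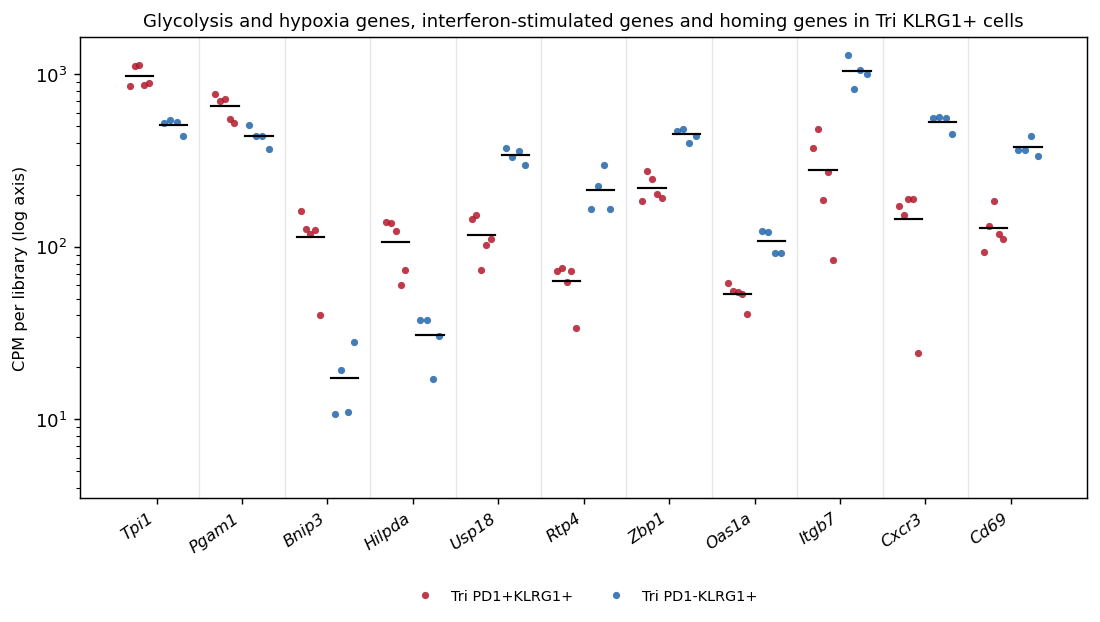
CPM per library on a log axis for 4 glycolysis and hypoxia genes, 4 interferon-stimulated genes, and 3 homing and retention genes in Tri PD1+KLRG1+ (red, left, 5 libraries) and Tri PD1-KLRG1+ (blue, right, 4 libraries), with black bars at the group means. The first 4 genes are higher and the other 7 lower in every PD1+ library than in any PD1- library.

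Of 32 cell-cycle genes tested, 0 passed in edgeR's quasi-likelihood test. In that test 8 had an unadjusted p under 0.05, all of them higher in Tri PD1+KLRG1+, and 5 were called by DESeq2. Over all 13288 genes tested, 2040 had an unadjusted p under 0.05 and DESeq2 called 1046. Of the 32 cell-cycle genes 27 had a positive log2 fold change, and the median was 0.37. Mki67 averaged 208 against 123 CPM and Top2a 250.5 against 210.3 CPM (adjusted p = 0.221 and 0.845). Summed over the list, the level was 3753 to 6119 CPM in Tri PD1+KLRG1+ and 3360.2 to 4283 CPM in Tri PD1-KLRG1+ libraries, which overlapped. Of 23 subunits of oxidative phosphorylation and 15 heat-shock proteins, 0 were called by edgeR and 1 of each list by DESeq2, with medians of -0.01 and 0.15. At an unadjusted p under 0.05 there were 1 and 2 of them. Of 18 survival and death genes 1 was lower, Mcl1, an anti-apoptotic Bcl2 relative (263 ± 52.7 against 374 ± 68.4 CPM, adjusted p = 0.0352). Its call was lost in 9 of 19 fits that left out 1 library (adjusted p up to 0.180, without Tri PD1-KLRG1+ replicate 1). Where this was a compared library, it was lost in 6 of 9. Median-ratio scaling ended it too.

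Antigen receptor and signalling genes were divided. Of 20 tested, Cd8a and Cd3g were higher and Fyn, Lat and Ptprc lower in Tri PD1+KLRG1+, with a median of -0.40. Fyn lost its call in 3 of 9 fits without 1 compared library (adjusted p up to 0.0922, without Tri PD1-KLRG1+ replicate 4). Cd3g, a chain of the CD3 complex, averaged 2131 ± 295 against 1268 ± 344 CPM (0.81 ± 0.16, adjusted p = 0.00598). Lat, the adaptor that links the receptor to calcium signalling, averaged 425 ± 66.2 against 707 ± 63.4 CPM (-0.72 ± 0.13, adjusted p = 0.00215). Among 16 genes of feedback on cytokine and G-protein signalling, Rgs16 and Rgs8, which end G-protein signals, were higher and 0 lower, with a median of 0.27. Rgs16 was at 726, 359, 761, 641 and 581.9 CPM in PD1+ libraries, against 72.96, 26.7, 26.02 and 21.3 CPM in PD1- libraries (3.93 ± 0.67, adjusted p = 0.00179).

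Of 24 cytokine receptors, Il2rb and Il1r2 were higher and Ifngr1 lower in Tri PD1+KLRG1+, with a median of -0.24. Il2rb, the shared chain of the IL-2 and IL-15 receptors, was at 2509.9, 1503, 2227, 3045 and 2507 CPM in PD1+ libraries, against 1386, 884, 982 and 1329.5 CPM in PD1- libraries (1.00 ± 0.16, adjusted p = 0.000908). Il1r2, a decoy receptor for IL-1, was at 89.4, 147, 239, 123 and 179 CPM in PD1+ libraries and without a count in the PD1- libraries, at least 1908-fold higher (adjusted p = 0.000253). Ifngr1, a chain of the interferon gamma receptor, averaged 887 ± 165 against 1451 ± 212 CPM (-0.71 ± 0.15, adjusted p = 0.00746, and 0.0888 without Tri PD1-KLRG1+ replicate 4). Il7r, the IL-7 receptor chain of memory cells, averaged 96.2 against 141 CPM (adjusted p = 0.343).

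Of 18 NK-type receptors and adaptors, Fcer1g and Klri2 were higher and Klrk1 and Klrc3 lower, with a median of -0.40. Fcer1g, a signalling adaptor of Fc and NK receptors, averaged 58.3 ± 30.2 CPM in Tri PD1+KLRG1+ and 13.2 ± 6.61 CPM in Tri PD1-KLRG1+ (2.33 ± 0.55, adjusted p = 0.0220). Klrk1, the activating receptor NKG2D, averaged 547 ± 112 against 785 ± 97.97 CPM (-0.57 ± 0.13, adjusted p = 0.0149). Of 9 fits that left out 1 compared library, the call was lost in 4 for Fcer1g, 6 for Klri2, 3 for Klrk1 and 9 for Klrc3. The adjusted p of these 4 genes reached 0.0963, 0.136, 0.0925 and 0.129. Each was highest without Tri PD1-KLRG1+ replicate 4, except Klri2, without its replicate 1. Of all 19 fits that left out 1 library, Klri2 lost its call in 11 and Klrc3 in 14.

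**Figure D4:**
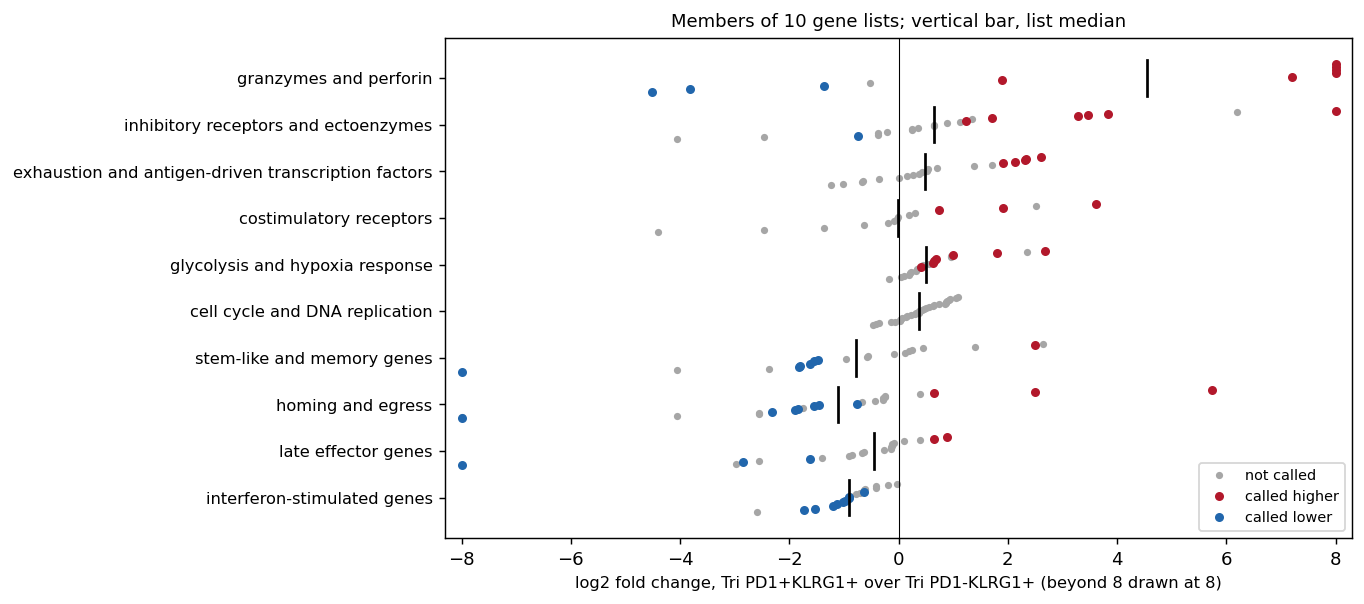
Log2 fold change of Tri PD1+KLRG1+ over Tri PD1-KLRG1+ for each tested member of 10 gene lists (points, red called higher, blue called lower, grey not called, values beyond 8 drawn at 8), with a vertical bar at each list's median. The medians run from -1.11 for homing and egress to 4.56 for granzymes and perforin, and interferon-stimulated genes all lie below 0.

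Some called genes had counts in 1 group alone. Of the 190 higher genes 35 had no count in any Tri PD1-KLRG1+ library, and of the 228 lower genes 28 had none in any Tri PD1+KLRG1+ library. These are 18.4% and 12.3% of the called genes, beside 3.85% and 2.65% of all genes tested. Among called genes of 10 CPM or more in the higher group whose libraries did not overlap, the 15 largest higher were Gzmd, Gzmg, Gzme, Il1r2, Rgs8, Styk1, Igfbp7, Slc17a6, Nrn1, Fam178b, Gpm6b, Tmprss6, Jam2, Arnt2 and Klhl30. Igfbp7, a secreted binder of insulin-like growth factors, was at 108, 76.2, 64.4, 72.4 and 148 CPM in the PD1+ libraries and at 0 in the PD1- libraries, at least 1159-fold higher (adjusted p = 0.00137). Styk1, a kinase-like membrane protein, was at 62.1, 161, 37.2, 95.3 and 37.6 CPM in the PD1+ libraries and at 0 in the PD1- libraries, at least 1019-fold higher (adjusted p = 0.000148). The bounds of the other genes without a PD1- count ran from 233-fold for Klhl30 upwards. The calls of Arnt2 and Gpm6b were lost without any 1 of the 4 PD1- libraries (adjusted p up to 0.0609 for Arnt2, without replicate 1, and 0.0720 for Gpm6b, without replicate 4).

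By the same limits, the largest lower genes included Gzma, Gzmm, Itgax and S1pr5, given above, and Vipr1, Cd163l1, Slc30a1, Soat2, Nupl1, Cmah, Pdlim1, Ttc9c, Rasgrp2 and Ripor2. Cd163l1, a scavenger receptor family member, had no count in the PD1+ libraries and 17.4, 32.3, 33.7 and 25.9 CPM in the PD1- libraries, at least 739-fold lower (adjusted p = 0.00310). Vipr1, a receptor for vasoactive intestinal peptide, had none in the PD1+ libraries and 15.05, 10.2, 46.4 and 12.9 CPM in the PD1- libraries, at least 597-fold lower (adjusted p = 0.00311). Pdlim1, a cytoskeletal adaptor, was at 26.3, 18.7, 32.6, 30.2 and 13.1 CPM in PD1+ libraries, against 145, 167, 141 and 132 CPM in PD1- libraries (-2.56 ± 0.31, adjusted p = 8.43e-05). Rasgrp2, an activator of Rap1 and integrins, was at 72.8, 7.97, 56.8, 24.2 and 7.36 CPM in PD1+ libraries, against 151, 201, 228 and 161 CPM in PD1- libraries (-2.47 ± 0.50, adjusted p = 0.00655). Slc30a1, Soat2, Nupl1 and Cmah lost their calls in 17, 18, 15 and 7 of 19 fits that left out 1 library (adjusted p up to 0.0991, 0.0998, 0.107 and 0.0963). Genes with no PD1+ count were by definition at 0 in every library of that group. The shares of well-expressed genes without a count in these libraries are given above, and their part in these zeros was not tested.

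The PD-1 difference outside the KLRG1+ gate was measured in Tri PD1+KLRG1- and Tri PD1-KLRG1- libraries. They are not part of the compared groups, but share the fit's spread, scaling, filter and name-series term with them. Of the 190 higher genes 187 (98.4%) had a positive log2 fold change there, and of the 228 lower genes 222 (97.4%) a negative one. Over all genes tested 65.0% had the same sign in both. The 190 higher genes had a median log2 fold change of 2.25 in KLRG1+ and 1.78 in KLRG1- cells, and the 228 lower genes -1.24 and -0.96. Both sets were chosen by their difference in KLRG1+ cells, which by itself favours a larger median there. Of them, 35 and 28 genes had no count in 1 KLRG1+ group, where fitted folds depend on the prior count. The medians therefore do not compare the size of the PD-1 effect between the gates. A test of the difference between the PD-1 effects in KLRG1+ and KLRG1- cells called 0 (0%) genes in edgeR's quasi-likelihood test. At an unadjusted p under 0.05 there were 645 of the 13288 genes tested. That is not more than the share that a limit of 0.05 passes where no gene differs. DESeq2 called 135 genes.

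**Figure D5:**
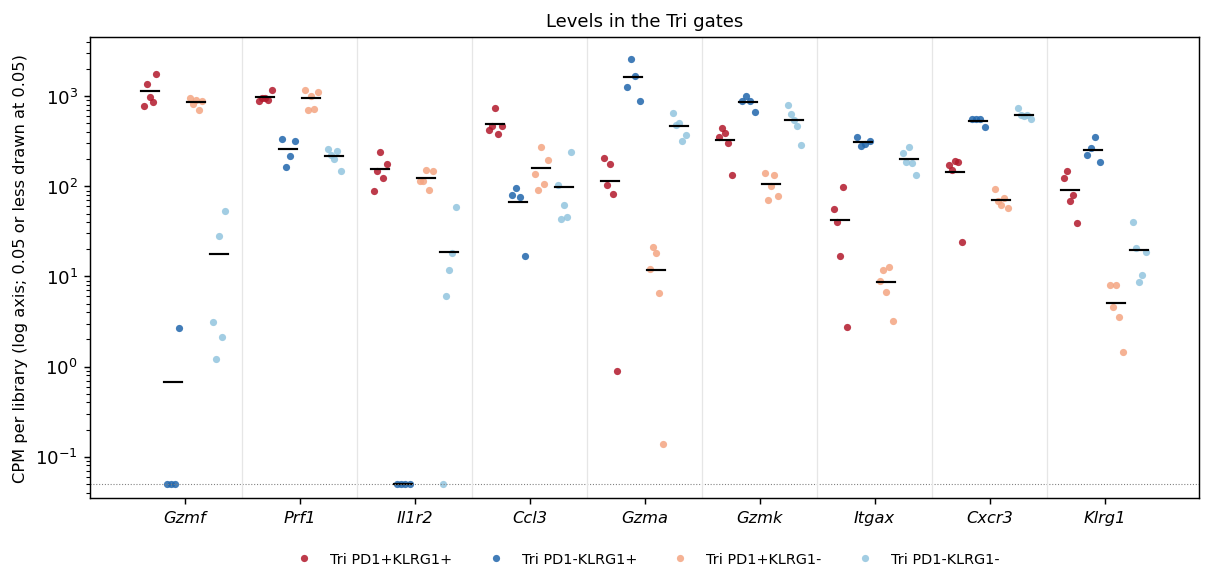
CPM per library on a log axis (values of 0.05 or less drawn at 0.05) for 9 genes in, from left to right, Tri PD1+KLRG1+ (red), Tri PD1-KLRG1+ (blue), Tri PD1+KLRG1- (light red) and Tri PD1-KLRG1- (light blue), with black bars at the group means. Gzmf and Prf1 are high in both PD1+ groups, Gzma and Gzmk in both PD1- groups, and Klrg1 in both KLRG1+ groups.

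In KLRG1- cells too, the log2 fold changes of granzymes C to G and Prf1 were positive and those of Gzma, Gzmk and Gzmm negative. Summed, granzymes C to G came to 1443 to 1893 CPM in Tri PD1+KLRG1- and 2.56 to 86.8 CPM in Tri PD1-KLRG1- libraries. Gzmf averaged 854 ± 99.5 CPM in PD1+KLRG1- and 17.7 ± 23.1 CPM in PD1-KLRG1- cells. Its PD-1 difference was larger in KLRG1+ cells by 5.10 (95% interval 2.37 to 7.83, adjusted p = 0.592) on the log2 scale, which did not pass. Gzma averaged 11.7 ± 8.62 CPM in PD1+KLRG1- and 464 ± 126 CPM in PD1-KLRG1- cells, and the difference of PD-1 effects was 1.83 (95% interval -0.24 to 3.89, adjusted p = 1.00). Prf1 averaged 946 ± 219 and 216 ± 43.1 CPM in these gates, with a difference of PD-1 effects of -0.23 (95% interval -0.84 to 0.38, adjusted p = 1.00). For Gzmk the difference was 0.95 (95% interval 0.20 to 1.70, adjusted p = 0.853). For Gzmb the means were 1199 ± 329 and 1973 ± 286 CPM and the difference 0.18 (95% interval -0.33 to 0.69, adjusted p = 1.00). The intervals are not adjusted for the number of genes, and those of Gzmf rest on a PD1- group with counts in 1 KLRG1+ library.

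For Havcr2 the difference of PD-1 effects between KLRG1+ and KLRG1- cells was -0.10 (95% interval -0.73 to 0.53, adjusted p = 1.00), for Tigit -0.01 (95% interval -0.68 to 0.67, adjusted p = 1.00) and for Tox 0.72 (95% interval -0.11 to 1.54, adjusted p = 1.00). Over all 13288 genes tested, 645 had an unadjusted p under 0.05 for the difference of PD-1 effects in edgeR's quasi-likelihood test. Named genes were in part chosen by their PD-1 difference in KLRG1+ cells, which enters this difference and can raise their share. Of 151 named genes with such a 95% interval, 34 had one that excluded 0, and 0 passed the adjusted test. Among these, the difference was 3.95 (95% interval 1.03 to 6.88, adjusted p = 0.821) for Cd200, -0.73 (95% interval -1.21 to -0.26, adjusted p = 0.681) for Tnfrsf9 and 1.30 (95% interval 0.34 to 2.26, adjusted p = 0.821) for Cxcr3. Others were Gzmd and Il1r2, which had no PD1-KLRG1+ count, so that their fitted difference depends on the prior count, and the chemokines Ccl3 and Ccl4. Ccl3 averaged 160.5 ± 73.9 CPM in Tri PD1+KLRG1- and 99.4 ± 83.3 CPM in Tri PD1-KLRG1- cells, and its PD-1 effect was larger in KLRG1+ cells by 2.23 (95% interval 0.75 to 3.72, adjusted p = 0.712). Ccl4 averaged 306 ± 85.9 and 447 ± 392 CPM in these gates, with a difference of 2.19 (95% interval 0.84 to 3.53, adjusted p = 0.655).

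Markers of other cell types were read beside these results. Of the listed markers, Ms4a1 and Pax5 (B cells), Ncr1 and Zbtb16 (NK and innate-like cells) and Adgre1 (macrophages) had no count in any of the 9 libraries. Neither did the keratins Krt8, Krt18, Krt19 and Krt20 (tumour). Other markers on the same lists did have counts. Among them, Csf1r (myeloid) was at 0 to 51.8 CPM in PD1+ and 0 to 3.96 CPM in PD1- libraries, and C1qb at 0 to 41.1 and 6.64 to 19.3 CPM. Cd79b (B cells) was at 0 to 10.0 and 5.00 to 14.8 CPM, Klrb1c (NK cells) at 0 to 17.8 and 0 to 21.2 CPM, and Epcam (tumour) at 0 to 4.53 and 0 CPM. Of 15 myeloid markers tested 1 was higher, Cd74, the invariant chain of MHC class II (231 ± 91.7 against 39.5 ± 14.98 CPM, adjusted p = 0.00337). The median log2 fold change of the 15 was 1.21, with 13 positive. The summed level of the myeloid list was 225 to 787 CPM in Tri PD1+KLRG1+ and 222 to 293 CPM in Tri PD1-KLRG1+. On the list of CD4 and regulatory T cells 3 of 10 genes were higher, Ikzf2, Capg and Nrp1, and its sums were 1110.5 to 1429 CPM in the PD1+ and 399 to 679 CPM in the PD1- libraries. Their median log2 fold change was 1.62, with 9 of 10 positive. Cd4 itself was at 0 to 7.07 CPM in PD1+ libraries and 0 in PD1- libraries, and Foxp3 at 0 to 7.85 and 0 to 24.2 CPM.

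Of 10 NK and innate-like markers tested 2 were higher in Tri PD1+KLRG1+, Tcrg-C2, a gamma chain constant segment (212 ± 99.97 against 42.7 ± 4.50 CPM, adjusted p = 3.21e-05), and Kit, a growth factor receptor (77.6 ± 63.8 against 0.123 ± 0.108 CPM, adjusted p = 0.00407). Kit was at 0 CPM in replicate 3 of the PD1+ group, so its libraries overlapped. Its call was lost in the plain series alone and with the 9 compared libraries alone. Trdc, the delta chain segment, was at 0 to 6.25 CPM in PD1+ and 2.99 to 23.5 CPM in PD1- libraries. The sums of this list were 416 to 611 CPM in PD1+ and 287 to 417 CPM in PD1- libraries. Of 4 B cell markers and 8 tumour and stroma markers tested, 0 were called by edgeR or DESeq2, and 0 had an unadjusted p under 0.05. Their sums were 8.76 to 111 CPM and 593 to 897 CPM in PD1+ libraries, and 123 to 165 CPM and 689.6 to 1174 CPM in PD1- libraries. Most of the tumour and stroma sum was Vim, vimentin, which T cells also express, at 546 to 823 CPM in PD1+ and 615 to 1124 CPM in PD1- libraries. The part of other cells in the results was not tested.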

How the data were processed

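The deposited table held counts per mouse gene, whole numbers that the authors did not normalise, for 27 RNA-seq libraries and 47729 Ensembl IDs. Sorting is described per the labels' protocols, and the submitters' processing notes name DESeq2 1.26.0 but not its role. Which aligner, counting tool, strandedness setting, build and annotation were used is not given in the sources used here. GENCODE M21 gave symbols to 47224 IDs and none to 505. All columns were matched by their descriptions, and 0 belonged to no sample.

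Genes with at least 10 counts in enough libraries (filterByExpr) were kept, and TMM-scaled counts of the 19 Tri libraries were fitted in edgeR 4.0.16 (R 4.3.3, limma 3.58.1) with a robust quasi-likelihood model of 1 mean per gate and the RNA-name series. The 8 Iso libraries were left out. P-values were adjusted by Benjamini-Hochberg over all 13288 genes tested, and genes under 0.05 were called. Standard errors (SE) were obtained by dividing the absolute log2 fold change by the root of F. CPM use TMM-scaled library sizes. For a group without counts, folds were bounded with 3 counts over the group. The labels do not say that each library is a separate mouse, so p-values measure the spread between these samples, which may be technical. Correlations used log2(CPM + 1).

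Named genes were the sort and group markers, the granzymes and inhibitory receptors, the 15 largest called changes per direction with 10 CPM or more in the higher group and libraries without overlap, up to 4 members of each other list with the smallest p, and up to 6 interaction genes per direction. Further list members were named after their values were seen, and a few genes are not reported here. The members, lists and tests were chosen with earlier results of these data known. Alternatives were median-ratio (RLE) scaling, other count filters, no series term, each series alone, all 27 libraries, the 9 libraries alone, a replicate block, a non-robust fit, DESeq2 1.42.0, and leaving out each library. Restricting to genes of 50 CPM or more and taking the genes detected as a covariate were chosen after seeing the data. Tested on simulated counts with 100 genes changed per size, the comparison recovered 55 of the 4-fold and 18 of the 2-fold changes with 1 false call among 12712 genes. Promoters (250 bases before to 50 after the start) came from RefSeq, GRCm38.p6. Identities were computed in Biopython 1.88, those of promoters over the 250 bases before the start alone. Figures were drawn in matplotlib 3.10.9 with Python 3.11.15.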

Additional observations from a re-analysis of the deposited data

Results flagged for a closer look

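Of 265 groups of values examined, 21 had 1 library far from the others of its group, and chance flags about 1 in 20. Among genes called higher in Tri PD1+KLRG1+, the distant libraries of that group were Tox in replicate 1 (135.8 CPM, the others 230.8 to 259 CPM), Ccl3 in replicate 3 (740.4 CPM), Cxcr6 in replicate 5 (2557 CPM), Cd8a in replicate 5 (2208 CPM) and Gpm6b in replicate 1 (4.95 CPM). Cxcr3, called lower, was at 24.2 CPM in Tri PD1+KLRG1+ replicate 5 and at 450.4 CPM in Tri PD1-KLRG1+ replicate 4, each the lowest of its group. Genes without a call stood apart in Tri PD1+KLRG1+ in replicate 2 for Cd3e (1270.2 CPM) and Rgs1 (272 CPM) and in replicate 4 for Cd101 (67.3 CPM). In Tri PD1-KLRG1+ the distant libraries were replicate 1 for Rgs16 (73.0 CPM), replicate 2 for Tigit (94.2 CPM) and Fasl (449.96 CPM), replicate 3 for Vipr1 (46.4 CPM), Lta (20.4 CPM) and Hsph1 (94.2 CPM), and replicate 4 for Tpi1 (441 CPM) and Icos (116 CPM). Of library measures, ribosomal protein genes took 1.99% of counts in Tri PD1+KLRG1+ replicate 4. B cell markers summed to 8.76 CPM in Tri PD1+KLRG1+ replicate 5, and NK and innate-like markers to 287 CPM in Tri PD1-KLRG1+ replicate 2. The PD-1 calls of Tox, Ccl3, Cxcr6, Cd8a, Cxcr3, Rgs16, Tigit, Vipr1 and Tpi1 held in all 19 fits that left out 1 library. Most were lost in another alternative, leaving aside the suffixed series with its single PD1- library. The fit of all 27 libraries lost Tox, Cxcr6 and Rgs16, that of the 9 compared libraries Cxcr3 and Vipr1, and the plain series alone Cd8a. Tigit was lost in each of these fits, and Ccl3 and Tpi1 in none of them.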

How the results depend on the processing

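The 418 calls kept their sign in every alternative that tested them, except for 2 of 417 in the suffixed name series alone. Median-ratio scaling gave 215 higher and 195 lower genes, and moved the median of all genes by 0.06. Other counts moved by over 1.5 times; the cause was not tested. Without a count filter 669 genes were called, 333 of them higher, and 64 interactions. The plain series alone called 106 higher genes and 2 interactions (Nupl1 and Ikbkg), and the suffixed series alone 1 gene, 1 higher and 0 lower. All 27 libraries gave 169 genes (69 higher, 100 lower), and the 9 libraries alone 141 (91 higher, 50 lower), with fewer samples for the spread. Calls that the 9 libraries alone did not keep included those of Gzma, Id3, Foxo1, Lat, Satb1 and Cst7. DESeq2 called 1046 (557 higher, 489 lower) and 135 interactions. Leaving out each library in turn gave 245 to 515 genes, 126 to 247 higher, 119 to 268 lower and 0 to 3 interactions. Correlations of deviations between same-numbered libraries of the compared gates were -0.01, 0.07, 0.02 and 0.28. Between differently numbered ones they ran from -0.24 to 0.17, so the values do not settle whether equal numbers mark pairs. A replicate block called 365 genes, 164 higher and 201 lower, and 0 interactions. For single genes, leaving out a library ended a call in 145 results and made one in 17, and the other alternatives ended 228 and made 39. Depth limits genes near the floor of 3 counts, where fitted folds depend on the prior count.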

Other observations

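Outside the lists, 10 genes per direction with the smallest p were read after their values were seen. Irf8, an interferon regulatory factor of myeloid and activated lymphoid cells, was higher, averaging 733 ± 125 CPM in Tri PD1+KLRG1+ and 146 ± 27.2 CPM in Tri PD1-KLRG1+ (2.38 ± 0.21 on the log2 scale, SE, adjusted p = 2.29e-06). Its level in the KLRG1- gates was 724 CPM in PD1+ and 135 CPM in PD1- cells. Spp1, which encodes the secreted protein osteopontin, averaged 322 ± 115 CPM in Tri PD1+KLRG1+ and 0.175 ± 0.350 CPM in Tri PD1-KLRG1+, with counts in 1 of 4 PD1- libraries (adjusted p = 3.1e-06). Adgrg1, an adhesion receptor, was at 229 against 13.6 CPM and the metallothionein Mt1 at 144 against 15.3 CPM in PD1+ against PD1- cells. The others higher were Lat2, Chst12, Samsn1, Ifitm1, Ltbp3 and Plscr1.

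Among the lower genes were 3 GTPases of immunity-associated proteins, which act in lymphocyte survival: Gimap3 (702 against 1319 CPM, -0.92 ± 0.12), Gimap4 (1085 against 2023 CPM, -0.89 ± 0.12) and Gimap6 (545 against 908 CPM, -0.74 ± 0.10), with adjusted p of 0.000189, 0.000277 and 0.000339. Ms4a6b, a membrane protein of the MS4A family, averaged 543 ± 77.4 CPM in Tri PD1+KLRG1+ and 1304 ± 234 CPM in Tri PD1-KLRG1+ (-1.24 ± 0.14, adjusted p = 3.21e-05). Sp100 (534 against 1249 CPM), Sp110 (273 against 535 CPM) and Igtp (239 against 626 CPM) were lower in PD1+ cells too, as were Samd3, Slfn1 and Slco3a1.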
